A study of Xenopus laevis with 12 samples.

Results

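Untreated control embryos of the African clawed frog Xenopus laevis were examined at stage 9.5, labelled as early gastrula, and in them the RNA level of each gene copy of the L subgenome was set against that of its S partner. Every gene was taken whose name carries the suffix .L or .S and whose base symbol occurs in the deposited count table with both suffixes. These were 10454 of the 18892 genes of the table, or 5227 L and S pairs, read in the 3 control libraries out of the 12 of the study. Each control library was made from the total RNA of 3 whole embryos by strand-specific sequencing of poly-A RNA from 60 ng of total RNA. The labels call the group Control, name no genotype or strain, do not say what carrier the controls received, and do not say whether the replicates came from separate clutches, so that p-values here measure only the spread between these 3 libraries. The other 9 libraries, from embryos given a compound at the 4-cell stage, were not used.

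X. laevis is an allotetraploid: its genome joined the chromosome sets of a pair of related frog species, and its chromosomes still fall into a longer (L) and a shorter (S) set. The copies of a gene on the L and the S set are called homeologs. In the frog lineage many genes kept both homeologs while others lost one, and the S set is known to have lost more genes. At stage 9.5 much of the RNA in the embryo is still maternal, stored in the egg, while transcription from the embryo's own genome has started at the midblastula transition and patterns the germ layers. A level measured here therefore sums stored and newly made RNA, and in whole embryos fewer cells of a type and less RNA per cell cannot be told apart.

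The 3 libraries held 13158728, 14799872 and 13562406 counts. They differed most in the share of counts on the 12 mitochondrially encoded genes found by symbol, which was 13.5% in control 1, 0.946% in control 2 and 4.23% in control 3, so control 1 stands apart. The paired genes took 57.8%, 69.5% and 66.4% of the counts in the same order. Across all genes the libraries differed by far more than sampling noise, with a chi-square per degree of freedom of 177 between controls 1 and 2, 83.1 between 1 and 3 and 27.8 between 2 and 3, so none was a copy of another. Markers of the early germ layers were present, though some averaged under 1 CPM, and few symbols of late tissues were in the table. Of the listed symbols the table held 4 of 7 for endoderm, 6 of 6 for ectoderm, 5 of 6 for zygotic mesoderm and 5 of 7 for the organizer. Counting L and S copies singly, 8 of 8 endoderm genes and 10 of 11 ectoderm genes averaged at least 1 CPM (counts per 1000000 counts of the library), as did 4 of 8 mesoderm and 5 of 9 organizer genes. Of the late muscle list the one gene in the table was ckm.L at 1.13 CPM, above the mesoderm gene tbxt.S at 0.934 CPM. Of the late nervous system list the one gene was tubb2b.L at 0.669 CPM. No symbol of the late blood list or of the late liver and pancreas list was in the table.

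The genes with the most counts were mitochondrial. COX1, a subunit of cytochrome c oxidase, had 60086, 4108 and 19028 CPM in controls 1, 2 and 3. COX3 had 21798, 1476 and 6876 CPM and CYTB, of the cytochrome bc1 complex, 15710.5, 1086 and 4763 CPM. For each of these genes the order of the libraries was control 1, then 3, then 2, the order of the mitochondrial share they help to make up.

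Outside the mitochondrial symbols, the 20 genes with the most counts were led by 3 names with no gene symbol, followed by nat1, odc1.S and both copies of ccna1. XBmRNA83514 had 8059, 559.9 and 2255 CPM, XBXL10_1g44441 had 4102, 236 and 1151 CPM and XBmRNA83516 had 2869, 160.1 and 761 CPM in controls 1, 2 and 3. These names match no symbol of the RefSeq gene table and moved with the mitochondrial share of the library. odc1.S, for ornithine decarboxylase, the rate-limiting enzyme of polyamine synthesis, was among the steadiest, with 935, 897 and 897 CPM (909.7 ± 22.2 CPM, SD, n = 3). Cyclin A1, the cyclin of eggs and early embryos, was in the list with both copies: ccna1.L had 711, 1022 and 885 CPM, against 869, 959.9 and 893 CPM for ccna1.S. Cyclin B1, which drives entry into mitosis, also stood there with both copies, with 685 ± 90.0 CPM for ccnb1.L and 699.8 ± 23.7 CPM for ccnb1.S, and its tandem relative ccnb1.2.L had 659 ± 107 CPM.

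One copy alone reached the first 20 for most of the other genes. slc16a3.L, a monocarboxylate transporter, averaged 846 ± 103 CPM, rrm2b.S, a subunit of ribonucleotide reductase, 710.2 ± 75.3 CPM, and ctnnb1.L, for beta-catenin of the Wnt pathway and of cell junctions, 676 ± 159 CPM. Other members were spread more widely between the libraries. ubc.S, for polyubiquitin, had 1322, 207 and 469 CPM, h2az1.L, for the histone variant H2A.Z, 1278, 248 and 478 CPM, cldn6.1.L, a tight junction claudin, 1168, 331 and 528 CPM, and gmnn.L, for geminin, an inhibitor of replication licensing, 1097, 414 and 648 CPM. In these 4 genes control 1 was highest and control 2 lowest. plin2.S, a protein of lipid droplets, averaged 696 ± 230.3 CPM, and ctsv.L, a lysosomal cathepsin, 790.2 ± 251 CPM. nat1 averaged 942 ± 224 CPM and MGC68655 680.4 ± 252 CPM. Ranked on controls 2 and 3 alone, 12 of the 20 were among the first 20, and the ranks were 221 for ubc.S, 179 for h2az1.L, 115 for cldn6.1.L and 95 for XBmRNA83516. All values are per gene and not per length, so the order is one of counts, not of molecules.

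**Figure D1:**
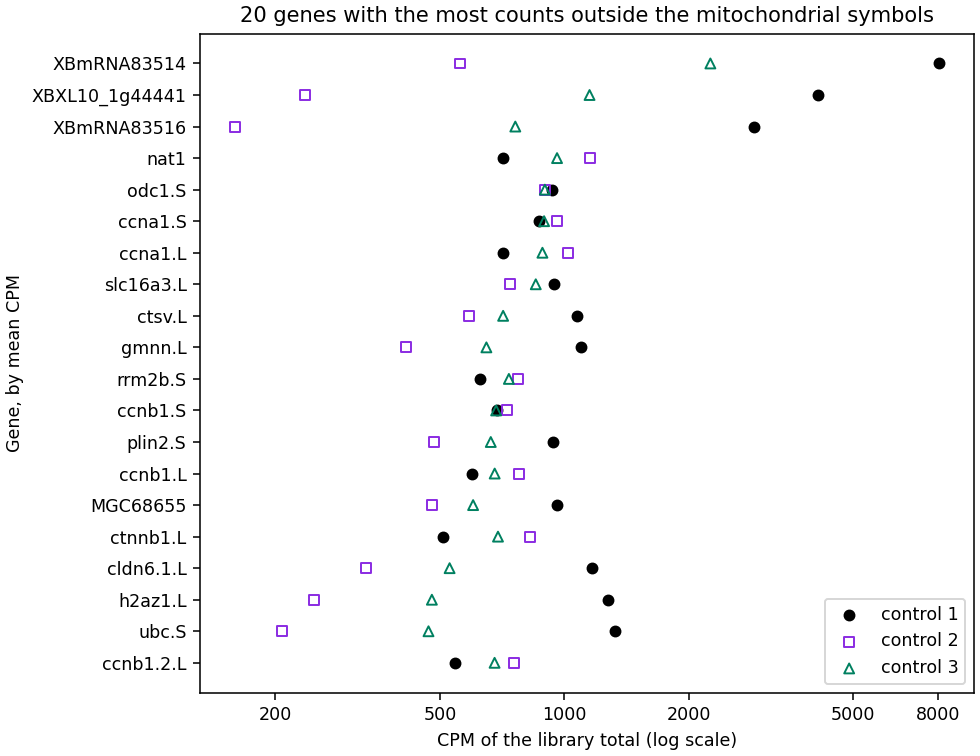
CPM of the library total (x axis, log scale) of the 20 genes with the highest mean CPM outside the mitochondrial symbols (y axis, highest at the top), with 1 point for each of the 3 control libraries. The points of odc1.S and ccnb1.S lie close together, while those of the first 3 names, h2az1.L and ubc.S are spread, with control 1 highest.

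The 100 genes with the most counts outside the mitochondrial symbols took 7.06%, 5.51% and 5.71% of the counts of controls 1, 2 and 3. They held 51 L copies, 38 S copies and 11 names with neither suffix. One copy of a pair made up 74 of the 100, and for 17 base symbols both copies were among the 100.

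Taken over all pairs, the L and S subgenomes gave nearly equal counts, and most single pairs did not. L copies held 52.0%, 52.1% and 52.0% of the counts of paired genes in controls 1, 2 and 3 (52.0% ± 0.0371, SD, n = 3). With 3 libraries an exact sign-flip test cannot give a p below 0.25, so the share was not tested. The median log2 ratio of L to S counts within a library was 0.06, 0.08 and 0.08 (0.08 ± 0.01, SD, n = 3). L had the higher count in 51.9%, 52.3% and 52.4% of the tested pairs. These are ratios of counts with no correction for transcript length, since no transcript lengths were at hand, and reads that fit both copies could be split between them; the part of either in the ratios was not tested.

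Of the 5227 pairs, 5213 had at least 10 counts on L and S together in every control library and were tested with edgeR, each library serving as its own block. L was higher than S in 2230 pairs, 42.8% of those tested, and S was higher than L in 1986, 38.1%, at an adjusted p under 0.05. The remaining 997 pairs, 19.1%, did not pass. A difference of at least 2-fold was called towards L in 1330 pairs, 25.5%, and towards S in 1094, 21.0%. At 4-fold the counts were 626 towards L and 495 towards S, at 10-fold 240 and 168, and at 50-fold 40 and 19. The median pair differed 1.87-fold between its copies. A scaling that sets the typical ratio to 1 (TMM over the L and S columns) turned the split of calls to 2087 towards L and 2147 towards S, and with it the sign of the small median.

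**Figure D2:**
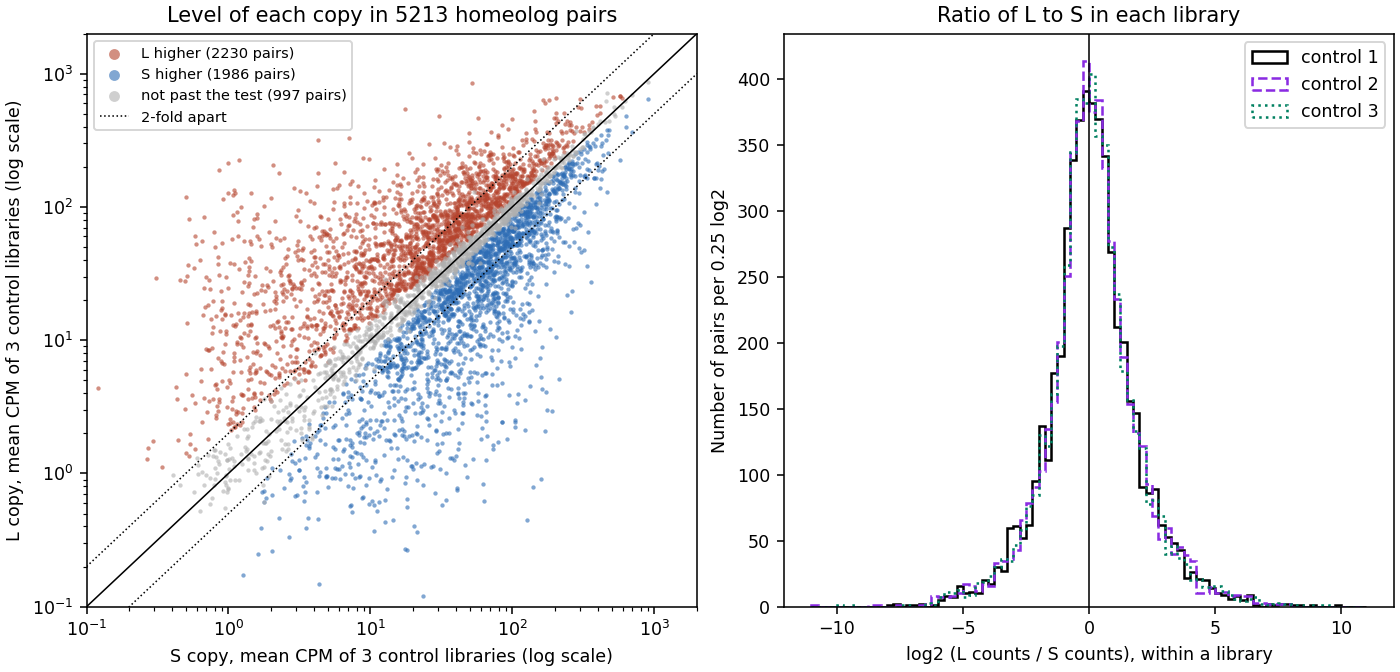
Left, mean CPM over 3 control libraries of the L copy (y axis) against the S copy (x axis) of 5213 pairs, both on log scales, coloured by the edgeR call (2230 L higher, 1986 S higher, 997 not past the test), with lines at equality and at 2-fold. Right, number of pairs by log2 ratio of L to S counts within each library: the 3 outlines nearly coincide, with medians of 0.06, 0.08 and 0.08.

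The ratios were alike in the 3 libraries. In 4613 pairs, 88.5% of those tested, all 3 libraries lay on the same side of equality, as they did in 4210 of the 4216 called pairs. The median SD of a pair's log2 ratio between libraries was 0.18. The lower and upper quartiles of the ratio were −0.81 and 1.05 in the mean over libraries, and the outer limits at 5% and 95% were −2.83 and 3.24.

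The gap between copies was smaller in pairs with more counts. With the tested pairs in 5 equal groups by L + S level, the median absolute log2 ratio was 1.26 in the lowest group (1.16 to 25.7 CPM), then 1.13, 0.91, 0.82 and 0.61 in the highest (187.9 to 1780.0 CPM). The share called at 2-fold or more was 57.0%, 55.0%, 47.0%, 41.7% and 31.9% in the same order. Across tested pairs the absolute log2 ratio and the log2 level had a Pearson r of −0.161. The median SD of the ratio between libraries fell too, from 0.373 in the lowest group to 0.111 in the highest. Its part in the gap was not tested. The share of counts on L changed little, from 50.3% in the lowest group to 52.4% in the highest. In the 4631 pairs with gene spans in the RefSeq table, the ratio of L to S span along the genome and the ratio of counts had a Pearson r of 0.00401 across pairs. Pairs next to each other in the gene order of the L chromosomes had ratios with an r of 0.0201 across 4620 neighbours. In the order of the S chromosomes r was 0.0274. These coefficients run across genes, which share libraries and are not independent replicates.

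Base symbols present with one suffix only were more often L. The table held 3836 L names with no S name and 1619 S names with no L name. They took 14.0%, 15.6% and 15.3% of the counts on the L side, and 5.90%, 6.39% and 6.23% on the S side. Their levels lay below those of paired genes: the median was 19.7 CPM for L alone and 15.6 CPM for S alone, against 38.5 CPM for the L and 35.4 CPM for the S copies of pairs. The sources used here name no filter on low genes before deposit, but only 2 of the 18892 genes had 0 counts in all control libraries. A missing name can mean a lost gene, a gene under another name or one with few counts, and these cannot be told apart. The shares of pairs called above cover only pairs with both names in the table.

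At the L end of the pairs stood genes of quite different roles, with the S copy near 1 CPM. These are the pairs with the widest ratios among those with both copies at 1 CPM or more and a sum of at least 20 CPM; since they were chosen by the ratio, their sizes are a description. znf462.L had 120.2, 292 and 260.2 CPM in controls 1, 2 and 3, against 0.304, 1.62 and 1.62 CPM for znf462.S (log2 L/S 7.57, SE 0.165, adjusted p = 1.65e-06). It encodes a zinc finger protein. SE here and below is drawn from the edgeR test and is not the SD between libraries. lrp4.L had 98.0, 156 and 151 CPM in controls 1, 2 and 3, against 1.52, 1.49 and 0.295 CPM for lrp4.S (log2 L/S 6.91, SE 0.346, adjusted p = 9.17e-06), a receptor related to the low density lipoprotein receptor. pkp3, for the desmosomal protein plakophilin 3, had 124 CPM on L and 1.07 CPM on S on average, and utp23, of the small ribosomal subunit processome, 126 CPM on L and 1.12 CPM on S. neil3, a DNA glycosylase, was very even between libraries in CPM of the library total. neil3.L had 207, 206 and 208 CPM in controls 1, 2 and 3, against 2.36, 1.82 and 1.99 CPM for neil3.S. otx1.L had 129, 121 and 133 CPM in controls 1, 2 and 3, against 1.82, 1.22 and 1.25 CPM for otx1.S (log2 L/S 6.48, SE 0.139, adjusted p = 1.57e-06). It is a homeobox factor of the anterior embryo. The others were rcor2, a corepressor, with log2 L/S 6.35, rev3l, the catalytic subunit of DNA polymerase zeta, with 6.32, gpat4, an enzyme of glycerolipid synthesis, with 6.31, and ano1, a chloride channel, with 6.31. In all 10 of these pairs every L value lay above every S value, which their choice by a wide ratio all but fixes.

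At the S end the L copy was the low one. dsc3.L had 1.37, 2.77 and 2.06 CPM in controls 1, 2 and 3, against 181, 146 and 183 CPM for dsc3.S (log2 L/S −6.33, SE 0.219, adjusted p = 3.06e-06). It encodes desmocollin 3, a desmosomal cadherin. hnrnpr.L had 2.89, 2.91 and 3.02 CPM in controls 1, 2 and 3, against 166, 217 and 185 CPM for hnrnpr.S (log2 L/S −6.0, SE 0.110, adjusted p = 1.49e-06), an hnRNP that binds RNA. ldhb.L had 3.88, 2.23 and 2.80 CPM in controls 1, 2 and 3, against 248, 138 and 139.9 CPM for ldhb.S (log2 L/S −5.87, SE 0.110, adjusted p = 1.49e-06). It is a subunit of lactate dehydrogenase. In each of these 3 pairs the lowest S value was above the highest L value, which the same choice by ratio all but fixes. The other 7 were rgs3, a regulator of G protein signalling, at log2 L/S −5.85, ephb4, an ephrin receptor, at −5.69, rgcc, a regulator of the cell cycle, at −5.58, lpar5, a receptor for lysophosphatidic acid, at −5.57, actn1, for alpha-actinin, at −5.55, btbd6 at −5.53 and slc38a10, an amino acid transporter, at −5.50.

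In 34 tested pairs one copy averaged under 0.5 CPM, the L copy in 19 and the S copy in 15. No tested pair had a copy at 0 counts over all 3 libraries. Only 2 of the 18892 genes in the table had 0 counts in all control libraries, so pairs with a silent copy could hardly appear. A count of 3 equals 0.228, 0.203 and 0.221 CPM in controls 1, 2 and 3, so these lower copies rest on very few counts. Named here are the pairs with the most counts in each direction. ahnak.L had 73.0, 127 and 154 CPM in controls 1, 2 and 3, against 0.228, 0.608 and 0.664 CPM for ahnak.S (log2 L/S 7.85, SE 0.138, adjusted p = 1.49e-06). It encodes a giant scaffold protein. ckap4, a membrane protein of the endoplasmic reticulum, averaged 29.2 CPM on L and 0.307 CPM on S, mtarc1, an enzyme of the outer mitochondrial membrane, 27.9 CPM on L and 0.495 CPM on S, letmd1 28.5 CPM on L and 0.455 CPM on S and myt1, a zinc finger factor of neural cells, 4.43 CPM on L and 0.428 CPM on S. In the other direction, ccng1.L had 1.14, 0.135 and 0.0737 CPM in controls 1, 2 and 3, against 217, 56.9 and 108 CPM for ccng1.S (log2 L/S −8.18, SE 0.273, adjusted p = 2.79e-06). It is the gene of cyclin G1, a target of p53, and its L copy had 15, 2 and 1 counts. bcl2, an inhibitor of cell death, had 2, 2 and 1 counts on L and 612, 120 and 219 on S. Its S copy and that of ccng1 were both highest in control 1. neurl1b averaged 0.265 CPM on L and 18.1 CPM on S, akap12, an anchor of protein kinase A, 0.364 CPM on L and 21.4 CPM on S and sema3d, a guidance cue, 0.404 CPM on L and 20.4 CPM on S.

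The 6 pairs with the most counts among those with a log2 ratio within 0.1 of 0 were ccna1, ccnb1, ccnb2, mki67, glul and ilf2. ccnb2.L had 524, 709 and 629.8 CPM in controls 1, 2 and 3, against 513, 707 and 632 CPM for ccnb2.S (log2 L/S 0.01, SE 0.0481, adjusted p = 0.867), and the values of the copies overlap library by library. ccna1 had log2 L/S −0.07 (SE 0.0802) and ccnb1 −0.04 (SE 0.0694). mki67.L had 295, 812 and 588 CPM in controls 1, 2 and 3, against 298, 799.9 and 693 CPM for mki67.S (log2 L/S −0.08, SE 0.0674, adjusted p = 0.323). It is the proliferation antigen Ki-67; both copies were lowest in control 1 while their ratio stayed near 1. glul, for glutamine synthetase, had log2 L/S −0.06 and ilf2, an RNA binding protein, 0.09. In all, 308 tested pairs had a ratio within 0.1 of 0 on the log2 scale; a p that misses the threshold does not show that copies are equal.

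**Figure D3:**
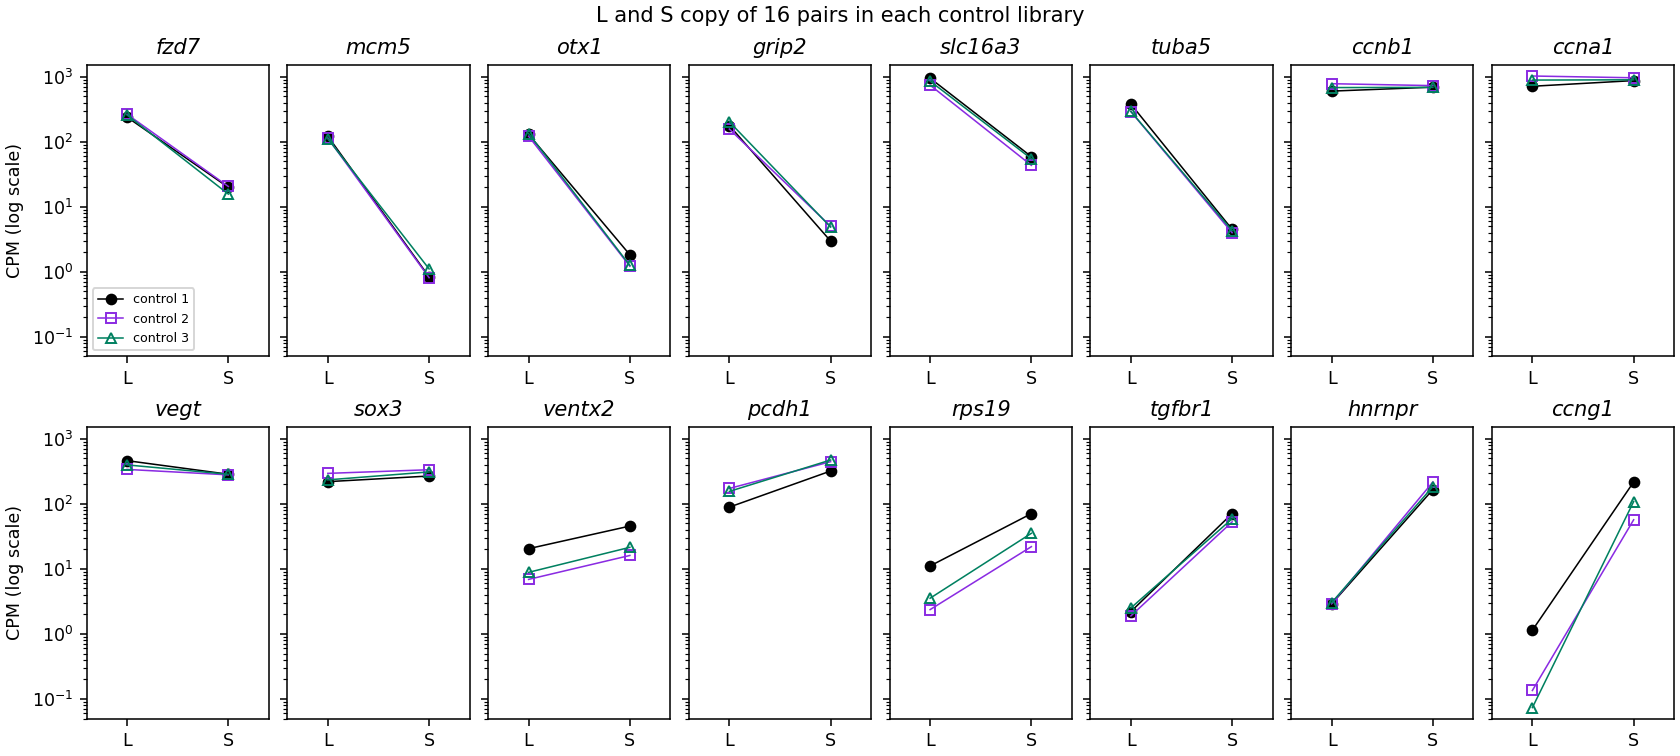
CPM (y axis, log scale) of the L copy (left point) and the S copy (right point) of 16 pairs, with 1 line for each of the 3 control libraries. The lines fall steeply from L to S in fzd7, mcm5, otx1, grip2, slc16a3 and tuba5, run nearly flat in ccnb1 and ccna1, and climb from L to S in pcdh1, rps19, tgfbr1, hnrnpr and ccng1.

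The pairs were then grouped into 28 gene families by their symbols, which took in 763 pairs. Family patterns read the start of a symbol, so a few members are partners of the family rather than members of it (fgfr1op2, ctnnbip1, the tubgcp genes). Against a median log2 L/S of 0.09 over all tested pairs, 14 family medians lay above 0 and 14 below, and 15 of the 28 changed sign under at least 1 alternative. They are to be read against the 42.8% of all tested pairs that were higher on L and the 38.1% higher on S. For calls of at least 2-fold the shares of all tested pairs were 25.5% towards L and 21.0% towards S. Tested pairs as a whole thus lay on both sides. A family or complex below with members on both sides is not set apart by that.

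**Figure D4:**
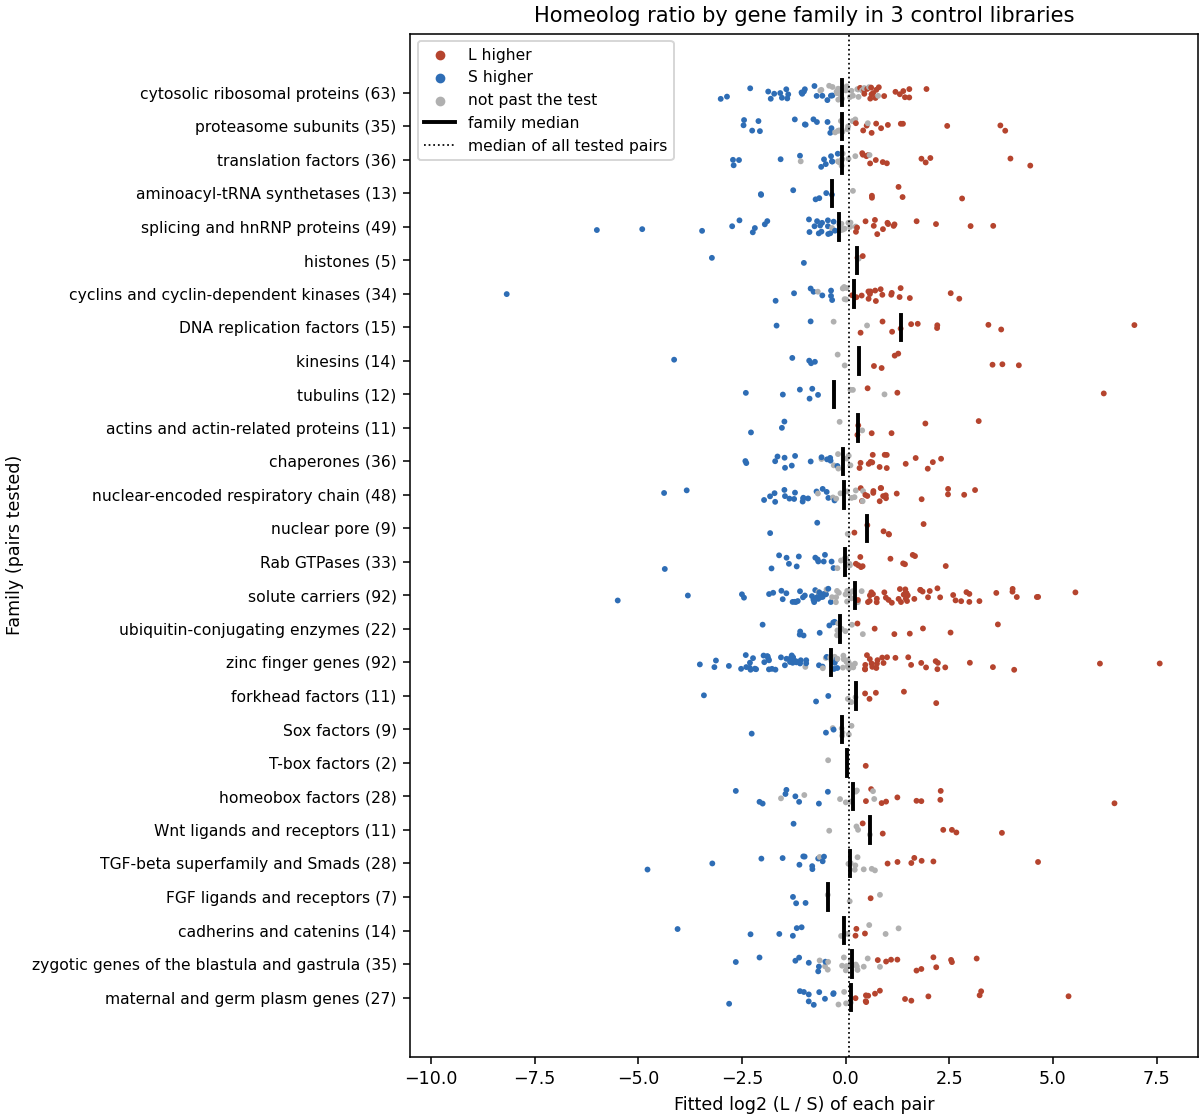
Fitted log2 ratio of L to S (x axis) for every tested pair of 28 gene families (y axis, number of pairs in brackets), coloured by the edgeR call, with a bar at each family's median and a dotted line at the median of all tested pairs, 0.09. DNA replication factors have the median farthest to the right, 1.32, and most families spread widely to both sides.

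Genes of the translation machinery were split between the subgenomes. Of 63 pairs of cytosolic ribosomal proteins, 19 were higher on L, 21 were higher on S and 23 did not pass, with a median log2 L/S of −0.09 (−0.19 to 0.03 under the alternatives, so the sign turned). L copies held 44.9% ± 0.0834 of their counts. Their 2-fold calls numbered 7 and 14 towards L and S, beside 25.5% and 21.0% of all tested pairs. rpl3.L had 65.4, 55.7 and 64.0 CPM in controls 1, 2 and 3, against 257, 115 and 148 CPM for rpl3.S (log2 L/S −1.41, SE 0.181, adjusted p = 0.000515). It encodes a core protein of the large subunit and had the most counts of the family. rps19, of the small subunit, was farthest towards S: rps19.L had 11.1, 2.36 and 3.54 CPM in controls 1, 2 and 3, against 70.7, 22 and 35.2 CPM for rps19.S (log2 L/S −3.01, SE 0.169, adjusted p = 1.35e-05). All its libraries were higher on S, while both copies were highest in control 1. rps27a, a fusion of ubiquitin and a ribosomal protein, was farthest towards L, with 26.2 CPM on L and 6.67 CPM on S (log2 L/S 1.95). The family's summed level was 4106 CPM in control 1, 1888 CPM in control 2 and 2270 CPM in control 3, in the order of the mitochondrial share of the libraries, whose part in this was not tested.

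Of 36 pairs of translation factors, 13 were higher on L, 12 were higher on S and 11 did not pass, with a median log2 L/S of −0.09 (−0.19 to 0.54 under the alternatives, so the sign turned). Their shares of calls, 36.1% on L and 33.3% on S, were both below those of all tested pairs. Like tested pairs as a whole, subunits of one complex lay on both sides. In the initiation factor eIF3, eif3h averaged 102 ± 17.2 CPM on L and 6.5 ± 0.812 CPM on S (log2 L/S 3.97) while eif3k averaged 13.6 ± 2.85 CPM on L and 95.1 ± 46.2 CPM on S (log2 L/S −2.72). eif3l (log2 L/S 0.99) and eif3j (0.40) were higher on L, and eif3e (−0.52) and eif3c (−0.48) higher on S. eif2b1, of the exchange factor for eIF2, was farthest towards L with 30.6 CPM on L and 1.37 CPM on S. eif4g1, the scaffold of cap-dependent initiation, was higher on S, with 32.7 CPM on L and 197 CPM on S. Of 13 aminoacyl-tRNA synthetases, which charge tRNAs, 5 were higher on L, 7 were higher on S and 1 did not pass, with a median log2 L/S of −0.33 (−0.43 to 0.17 under the alternatives, so the sign turned). gars1, for glycine, had 114 CPM on L and 16.5 CPM on S, and sars1, for serine, 19.4 CPM on L and 79.8 CPM on S.

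Genes of protein folding and breakdown were also found on both sides. Of 35 proteasome pairs, 12 were higher on L, 13 were higher on S and 10 did not pass, with a median log2 L/S of −0.08. Subunits of the alpha ring lay on both sides: psma3 averaged 33.9 ± 3.99 CPM on L and 2.35 ± 0.357 CPM on S (log2 L/S 3.85) and psma6 24.9 ± 1.57 CPM on L and 1.89 ± 0.809 CPM on S (log2 L/S 3.73), while psma5 averaged 9.51 ± 1.84 CPM on L and 45.2 ± 5.03 CPM on S (log2 L/S −2.26). psme1, of the PA28 activator, was farthest towards S, with log2 L/S −2.46. Of 36 chaperone pairs, 15 were higher on L, 14 were higher on S and 7 did not pass, with a median log2 L/S of −0.08 (−0.19 to 0.02 under the alternatives, so the sign turned). dnaja1, a J-domain partner of Hsp70, had the most counts and a small difference (log2 L/S −0.20), while dnajc11 was at 2.30 and dnajc17 at −2.42. The endoplasmic chaperone gene hspa5 was higher on S (−0.84), and the mitochondrial chaperonin gene hspd1 higher on L (0.82). Of 22 ubiquitin-conjugating enzymes, 7 were higher on L, 8 were higher on S and 7 did not pass, with a median log2 L/S of −0.14 (−0.24 to 0.41 under the alternatives, so the sign turned), from ube2j1 at 3.67 to ube2b at −2.0.

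DNA replication factors had the family median farthest from 0. Of 15 pairs, 11 were higher on L, 2 were higher on S and 2 did not pass, with a median log2 L/S of 1.32, and L copies held 66.8% ± 1.67 of their counts. Calls of at least 2-fold numbered 9 and 1 towards L and S, beside 25.5% and 21.0% of all tested pairs. The table held 58 names of this list, among them 22 L names with no S partner and 6 S names with no L partner. Under the alternatives the median ran from 1.22 to 2.66.

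Within the MCM helicase, which opens the double helix, the copies were unequal to very different degrees. mcm5.L had 121, 114 and 111 CPM in controls 1, 2 and 3, against 0.836, 0.811 and 1.11 CPM for mcm5.S (log2 L/S 6.96, SE 0.139, adjusted p = 1.49e-06). mcm2.L had 114, 179 and 169.7 CPM in controls 1, 2 and 3, against 9.42, 19.2 and 14.6 CPM for mcm2.S (log2 L/S 3.44, SE 0.105, adjusted p = 2.39e-06). mcm7.L had 392, 629 and 489 CPM in controls 1, 2 and 3, against 146, 247 and 212 CPM for mcm7.S (log2 L/S 1.32, SE 0.0646, adjusted p = 8.42e-06). In all 3 the L values were above the S values in every library. mcm4 was also higher on L (log2 L/S 0.89), whereas mcm6 had 1.84 CPM on L and 3.32 CPM on S and was higher on S (−0.85). The 3 subunits of replication protein A, which coats single-stranded DNA, all had L higher, with 142 CPM on L and 10.6 CPM on S for rpa1, 158 CPM on L and 34.9 CPM on S for rpa2 and 180.5 CPM on L and 55.1 CPM on S for rpa3. Subunits of the clamp loader were divided: rfc2 was higher on L (1.74) and rfc5 on S (−1.67). The licensing factors cdt1 (1.12) and cdc6 (0.36) and the helicase partner cdc45 (2.21) were higher on L. Neither gmnn (log2 L/S 0.51, SE 0.256, adjusted p = 0.108) nor the sliding clamp gene pcna (log2 L/S −0.29, SE 0.183, adjusted p = 0.184) passed the test. The ratio of gmnn differed between libraries, with gmnn.L at 1097, 414 and 648 CPM and gmnn.S at 452, 474 and 471 CPM.

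Cyclins and cyclin-dependent kinases included 34 pairs, of which 18 were higher on L and 9 on S, with a median log2 L/S of 0.21 (−0.07 to 0.26 under the alternatives, so the sign turned). The pairs ccna1, ccnb1 and ccnb2 were listed above because their ratios were near equality, so they do not stand for mitotic cyclins as a group. The tandem relative ccnb1.2 had more counts on L in each library, with 544, 756 and 678 CPM on L and 502, 683 and 591 CPM on S. cdk9, the kinase that releases paused RNA polymerase II, was farthest towards L: cdk9.L had 104, 87.4 and 96.6 CPM in controls 1, 2 and 3, against 17, 12.4 and 13.9 CPM for cdk9.S (log2 L/S 2.74, SE 0.0917, adjusted p = 2.79e-06). Its copies did not overlap. ccnj averaged 161 CPM on L and 27.6 CPM on S. Among other members, these were higher on S: ccne1 at log2 L/S −0.35, ccne2 at −1.25 and cdk2 at −0.35. Of 14 kinesin motors, 7 were higher on L, 5 were higher on S and 2 did not pass, with a median log2 L/S of 0.33 (−0.11 to 0.35 under the alternatives, so the sign turned). kif22, a motor of chromosome arms, was the most counted, with kif22.L at 314, 574 and 495 CPM in controls 1, 2 and 3, against 143, 247 and 217 CPM for kif22.S (log2 L/S 1.18, SE 0.0545, adjusted p = 6.88e-06). kif13a averaged 96.8 ± 31.6 CPM on L and 5.43 ± 2.73 CPM on S (log2 L/S 4.18). The partners of one motor differed: kif3b had 4.81 CPM on L and 85.0 CPM on S, while kif3a had 27.6 CPM on L and 27.8 CPM on S and did not pass the test. Of 5 histone pairs 2 were higher on L (h2az1 and h3-3b) and 2 on S. The linker histone of oocytes, h1-8, was among those higher on S, with 204 ± 37.0 CPM on L and 407 ± 40.2 CPM on S (log2 L/S −1.01), and h2aj had 8.5 CPM on L and 79.7 CPM on S.

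Splicing and hnRNP proteins held more pairs higher on S. Of 49 pairs, 15 were higher on L, 23 were higher on S and 11 did not pass, with a median log2 L/S of −0.15, and L held 46.7% ± 1.07 of the counts. Within the SF3 complex, which recognises the branch point, sf3a1 and sf3b3 were higher on L while sf3b1 and sf3b2 were higher on S. sf3a1.L had 166, 289.5 and 240.1 CPM in controls 1, 2 and 3, against 14.7, 26.4 and 18.1 CPM for sf3a1.S (log2 L/S 3.56, SE 0.0875, adjusted p = 1.91e-06). sf3b1.L had 33.9, 56.3 and 47.7 CPM in controls 1, 2 and 3, against 248, 346 and 317 CPM for sf3b1.S (log2 L/S −2.74, SE 0.0755, adjusted p = 2.04e-06). In both pairs the copies were apart in every library. SR proteins were also divided, with srsf10 at 5.29 CPM on L and 159.7 CPM on S and srsf7 at 22 CPM on L and 243 CPM on S, against srsf11 at 137 CPM on L and 30.0 CPM on S. hnrnpab, the most counted of the list, did not pass (log2 L/S 0.12). Of 9 nuclear pore pairs, 6 were higher on L, 2 were higher on S and 1 did not pass, with a median log2 L/S of 0.52. nup98l averaged 523 ± 226 CPM on L and 141 ± 57.8 CPM on S (log2 L/S 1.88) and nup205, of the inner ring, 20.8 ± 5.74 CPM on L and 75.1 ± 28.5 CPM on S (log2 L/S −1.82).

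Genes of the cytoskeleton ranged from near equality to nearly all counts on one copy. Of 12 tubulin pairs, 3 were higher on L, 6 were higher on S and 3 did not pass, with a median log2 L/S of −0.28 (−0.74 to 1.91 under the alternatives, so the sign turned). tuba5.L had 378, 289.9 and 292 CPM in controls 1, 2 and 3, against 4.48, 3.99 and 4.28 CPM for tuba5.S (log2 L/S 6.22, SE 0.0946, adjusted p = 1.49e-06). tubb4a.L had 54.8, 80.9 and 59.2 CPM in controls 1, 2 and 3, against 355, 332 and 335 CPM for tubb4a.S (log2 L/S −2.41, SE 0.133, adjusted p = 1.26e-05). The counts of the alpha tubulin tuba5 thus lay nearly all on L and those of the beta tubulin tubb4a mostly on S. tubal3, the most counted, had 1290.2, 167 and 419.6 CPM on L and 798, 223 and 358 CPM on S, and did not pass (log2 L/S 0.17). Of 11 pairs of actins and actin-related proteins, 6 were higher on L, 3 were higher on S and 2 did not pass, with a median log2 L/S of 0.30. actg1, for cytoplasmic gamma actin, had 291 CPM on L and 239.8 CPM on S, and actb, for beta actin, 43.7 CPM on L and 136 CPM on S. In the Arp2/3 complex, which branches actin filaments, arpc1b was higher on L (3.21) and arpc2 on S (−2.28). The core subunits were opposed as well, with actr2 at 1.92 and actr3 at −1.54.

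Cadherins and catenins hold embryonic cells together. Of 14 tested pairs among 16, 3 were higher on L, 6 were higher on S and 5 did not pass, with a median log2 L/S of −0.03 (−0.59 to 0.09 under the alternatives, so the sign turned). Calls of at least 2-fold numbered 6, each towards S, where all tested pairs had 25.5% towards L and 21.0% towards S. C-cadherin, the maternal cadherin of the frog blastula, is encoded by cdh3, which had 415 CPM on L and 402 CPM on S and did not pass. ctnnb1.L had 510.1, 827 and 691 CPM in controls 1, 2 and 3, against 430.3, 725 and 571 CPM for ctnnb1.S (log2 L/S 0.24, SE 0.0499, adjusted p = 0.00503). It encodes beta-catenin, and L was higher within each library although the ranges of the copies overlap. ctnna1, for alpha-catenin, averaged 192 ± 59.2 CPM on L and 439 ± 147 CPM on S (log2 L/S −1.18), and pcdh1, for axial protocadherin, 139 ± 44.1 CPM on L and 412 ± 81.2 CPM on S (log2 L/S −1.60). cdh26 was farthest towards S, with 1.99 CPM on L and 32.2 CPM on S.

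Solute carriers are membrane transporters for small molecules. Their shares of calls of any size, 47.8% on L and 35.9% on S, lay near the 42.8% and 38.1% of all tested pairs. Of 92 pairs, 44 were higher on L, 33 were higher on S and 15 did not pass, with a median log2 L/S of 0.23, and 2-fold calls numbered 34 and 15 towards L and S. Over all tested pairs 2-fold calls were 25.5% towards L and 21.0% towards S, so these calls lay more towards L here. L held 61.5% ± 1.02 of the counts, against 52.0% over all paired genes. slc16a3.L had 946, 739 and 853 CPM in controls 1, 2 and 3, against 58.9, 43.2 and 54.6 CPM for slc16a3.S (log2 L/S 4.02, SE 0.0621, adjusted p = 1.49e-06). slc44a2.L had 309.7, 329 and 340.4 CPM in controls 1, 2 and 3, against 5.70, 7.03 and 8.41 CPM for slc44a2.S (log2 L/S 5.54, SE 0.105, adjusted p = 1.49e-06). In each the S copy reached no more than a small part of the L level in every library. slc44a2 and slc44a1, both transporters of the choline family, leaned the same way, slc44a1 with 145 CPM on L and 8.23 CPM on S. slc38a10 and slc25a46, a protein of the outer mitochondrial membrane, stood at the S end, with log2 L/S −5.50 and −3.81. The nuclear genes of the respiratory chain comprised 48 pairs, of which 18 were higher on L, 20 were higher on S and 10 did not pass, with a median log2 L/S of −0.05 (−0.27 to 0.14 under the alternatives, so the sign turned). cycs, for cytochrome c, was the most counted, with cycs.L at 248, 99.5 and 119 CPM in controls 1, 2 and 3, against 475, 160.4 and 254 CPM for cycs.S (log2 L/S −0.91, SE 0.0881, adjusted p = 0.000142). Subunits of complex I were on both sides, with ndufb7 at 2.86 and ndufb9 at −4.38, and so were those of cytochrome c oxidase, with cox5b.1 at 3.12 and cox7b at −3.84. Of 33 Rab GTPases, switches of membrane traffic, 11 were higher on L, 14 were higher on S and 8 did not pass, with a median log2 L/S of −0.02 (−0.12 to 0.08 under the alternatives, so the sign turned), and rab5a, of early endosomes, was the most counted with 149.5 CPM on L and 55.6 CPM on S.

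Zinc finger genes held more pairs higher on S. Of 92 pairs, 27 were higher on L, 45 were higher on S and 20 did not pass, with a median log2 L/S of −0.34, with 2-fold calls in 14 and 36 towards L and S. Over all tested pairs 2-fold calls made up 25.5% towards L and 21.0% towards S. The median ran from −0.44 to −0.22 under the alternatives. The pair with the most counts was znf326, with 166 ± 44.5 CPM on L and 373 ± 72.4 CPM on S (log2 L/S −1.19). znf217 leaned the other way, with 461 ± 109 CPM on L and 57.5 ± 10.2 CPM on S (log2 L/S 2.99), as did znf462 above. znf821 was farthest towards S among those with at least 10 CPM, with 5.68 CPM on L and 65.3 CPM on S. L copies held 48.6% ± 1.25 of the counts of the family.

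Transcription factors set up the germ layers from maternal stores and from the embryo's own genes. vegt, the maternal T-box factor that specifies endoderm and mesoderm, had vegt.L at 461, 338 and 397 CPM in controls 1, 2 and 3, against 285, 279 and 285 CPM for vegt.S (log2 L/S 0.48, SE 0.0872, adjusted p = 0.00248). Each L value was above each S value. sox3, of early ectoderm, was slightly higher on S, with sox3.L at 219, 294 and 234 CPM in controls 1, 2 and 3, against 268, 334 and 309 CPM for sox3.S (log2 L/S −0.29, SE 0.0645, adjusted p = 0.00605). Of the 9 tested Sox pairs, 3 were higher on S (sox3, sox11 and sox2) and 6 did not pass, among them the endoderm factors sox17a (log2 L/S 0.14) and sox17b.1 (−0.09). pou5f3.3, a maternal relative of Oct4, had 576 ± 24.5 CPM on L and 411 ± 24.8 CPM on S (log2 L/S 0.49) and pou5f3.2 59.7 ± 15.5 CPM on L and 30.2 ± 6.46 CPM on S (log2 L/S 0.97). Of 28 tested homeobox pairs, 10 were higher on L, 9 were higher on S and 9 did not pass, with a median log2 L/S of 0.18 (−0.43 to 0.65 under the alternatives, so the sign turned). pou2f1, the ubiquitous Oct1, averaged 411 ± 150.0 CPM on L and 84.3 ± 30.0 CPM on S (log2 L/S 2.28). Of 11 forkhead pairs, 5 were higher on L, 3 were higher on S and 3 did not pass, with a median log2 L/S of 0.24. foxi2, a maternal ectoderm factor, did not pass (0.14), and foxn3 was higher on L (1.4).

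Several zygotic patterning genes had low counts at this stage, and some of their ratios had wide errors. The pair of this list with the most counts, grhl1, averaged 91.9 CPM on L and 127 CPM on S. Of 35 pairs of this list, 11 were higher on L, 8 were higher on S and 16 did not pass, with a median log2 L/S of 0.14 (−0.05 to 0.24 under the alternatives, so the sign turned). Their summed level was 943 CPM in control 1, 623 CPM in control 2 and 671 CPM in control 3. ventx2.L had 20.4, 6.89 and 8.85 CPM in controls 1, 2 and 3, against 45.5, 16.1 and 21.5 CPM for ventx2.S (log2 L/S −1.21, SE 0.115, adjusted p = 0.000125). It is a ventral target of BMP signalling, and S was higher within each library. mix1, a Mix homeobox factor of endoderm and mesoderm, was also higher on S (−0.65), and not, a notochord homeobox factor, higher on L (1.82). gsc.L had 0.304, 0.0676 and 0.369 CPM in controls 1, 2 and 3, against 2.89, 0.878 and 1.11 CPM for gsc.S (log2 L/S −2.65, SE 0.532, adjusted p = 0.00401). Goosecoid marks the organizer, and its L copy had 10 counts in the 3 libraries together. hes5.8 was farthest towards L with 11.3 CPM on L and 1.29 CPM on S. Of the Grainyhead factors of ectoderm, grhl3 was higher on L (1.09) and grhl1 higher on S (−0.49). The pairs of mixer (0.27), eomes (−0.42) and ventx1 (0.12) did not pass. In 28 of the 35 pairs both copies were highest in control 1, the library with the highest mitochondrial share, and in 1, grhl1, both were lowest there. As examples from the 28 families, both copies were highest there in 61 of 63 cytosolic ribosomal protein pairs and 35 of 48 respiratory chain pairs. The counts were 12 of 28 for homeobox, 7 of 92 for zinc finger and 0 of 14 for kinesin pairs. The share over all tested pairs was not worked out, so none of these counts is shown to be unusual. The part of the mitochondrial share in these levels was not tested.

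Of 11 pairs of Wnt ligands and receptors, 6 were higher on L, 1 was higher on S and 4 did not pass, with a median log2 L/S of 0.58. L copies held 75.8% ± 1.70 of the counts, and the largest part came from fzd7, the main maternal Frizzled receptor of the frog embryo. fzd7.L had 238, 264 and 257 CPM in controls 1, 2 and 3, against 19.8, 20.5 and 15.6 CPM for fzd7.S (log2 L/S 3.77, SE 0.109, adjusted p = 2.22e-06). Every L value was far above every S value. lrp6, the co-receptor, was also higher on L, with 149 ± 50.9 CPM on L and 80.4 ± 27.7 CPM on S (log2 L/S 0.89), as were fzd5 (19.6 CPM on L and 3.17 CPM on S), fzd3 (8.22 CPM on L and 1.58 CPM on S) and fzd6 (0.41). Among ligands, wnt8a, a ventral and lateral mesoderm signal, had wnt8a.L at 5.4, 1.55 and 2.14 CPM in controls 1, 2 and 3, against 0.456, 0.135 and 0.885 CPM for wnt8a.S (log2 L/S 2.56, SE 0.528, adjusted p = 0.00451); its S copy rests on 20 counts. Of the secreted inhibitors, sfrp2 was higher on S (−1.26) and dkk1 did not pass. The family median ran from 0.40 to 2.35 under the alternatives.

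In the TGF-beta superfamily pairs lay on both sides. The share higher on S, 42.9%, was near the 38.1% of all tested pairs, and the share higher on L, 25%, was below their 42.8%. Calls of at least 2-fold numbered 7 and 6 towards L and S, near the 25.5% and 21.0% of all tested pairs. Of 28 pairs, 7 were higher on L, 12 were higher on S and 9 did not pass, with a median log2 L/S of 0.09 (−0.52 to 0.17 under the alternatives, so the sign turned). tgfbr1.L had 2.20, 1.89 and 2.51 CPM in controls 1, 2 and 3, against 70.9, 52.8 and 59.0 CPM for tgfbr1.S (log2 L/S −4.78, SE 0.138, adjusted p = 2.22e-06). The receptors of types I and II for activins and BMPs named here were picked by role after their values were seen. Higher on S were acvr1 at −1.52, acvr1b at −0.80, acvr2a at −0.81 and acvr2b at −2.03, whereas the BMP receptor pair bmpr1a did not pass (0.07). Among the Smads, the intracellular effectors, smad1 was the most counted, with smad1.L at 199, 308 and 268 CPM in controls 1, 2 and 3, against 75.5, 133 and 122 CPM for smad1.S (log2 L/S 1.25, SE 0.0735, adjusted p = 1.66e-05). smad9 was higher on L too (24.7 CPM on L and 0.990 CPM on S), and smad2 higher on S (−0.56). smad4, the common partner, had 2.26 ± 0.0834 CPM on L and 21.2 ± 4.07 CPM on S (log2 L/S −3.22). Inhibitory Smads were opposed, with smad7 at 1.83 and smad6 at −0.52. Among ligands nodal6, an inducer of mesendoderm, was higher on L with 20.4, 5.14 and 8.33 CPM on L and 3.04, 1.76 and 2.29 CPM on S. bmp2 was higher on S (−0.99) and bmp4 did not pass (log2 L/S −0.63, SE 0.335, adjusted p = 0.128). gdf9, an oocyte ligand, was higher on L (187 CPM on L and 62.4 CPM on S). Of the BMP antagonists chrd.1 and nog neither passed. In the FGF list of 7 pairs, 1 was higher on L and 3 on S: the receptor fgfr4 was higher on L, with 102 ± 8.36 CPM on L and 67.0 ± 3.66 CPM on S (log2 L/S 0.60), and fgfr3 higher on S (−0.97).

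Maternal and germ plasm genes had 27 tested pairs, of which 13 were higher on L, 10 were higher on S and 4 did not pass, with a median log2 L/S of 0.12. These shares, 48.1% on L and 37% on S, lay near the 42.8% and 38.1% of all tested pairs. Among those higher on L were grip2, farthest towards L, and tdrd15 and ddx4, named after their values were seen. All are genes of the germ plasm or germ line, and so chosen they do not show which way such genes lean. grip2.L had 177, 156 and 202 CPM in controls 1, 2 and 3, against 2.96, 5.0 and 4.87 CPM for grip2.S (log2 L/S 5.37, SE 0.174, adjusted p = 2.69e-06). tdrd15, a Tudor domain gene, averaged 21.3 CPM on L and 2.18 CPM on S and ddx4, the Vasa helicase of germ cells, 65.4 CPM on L and 24.3 CPM on S. spire1, an actin nucleator, was farthest towards S: spire1.L had 4.48, 6.76 and 5.16 CPM in controls 1, 2 and 3, against 53.7, 29.0 and 36.5 CPM for spire1.S (log2 L/S −2.81, SE 0.278, adjusted p = 0.000153). npm2, nucleoplasmin of the egg, was higher on L with 108 ± 59.1 CPM on L and 10.7 ± 2.02 CPM on S (log2 L/S 3.23), and btg4, which promotes clearance of maternal RNA in mammals, was higher on S with 129 ± 9.90 CPM on L and 277 ± 6.57 CPM on S (log2 L/S −1.10). The RNA binding protein cpeb1, which controls maternal mRNA, was higher on L, with log2 L/S 0.54. aurka and plk1, for mitotic kinases, were higher on S, at −0.89 and −0.30. The ratio of aurka was −0.17, −1.48 and −1.03 in controls 1, 2 and 3, so it moved between the libraries.

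A small share of pairs did not keep one ratio in the 3 libraries. Among the 4170 pairs with both copies at 5 CPM or more, the median range of the log2 ratio over the libraries was 0.29, and it was above 1 in 215 pairs, 5.16%. In 198 of these 215, 92.1%, control 3 lay between controls 1 and 2, as it did in 54.1% of all 4170. Choice by a wide range favours the 2 least alike libraries at its ends, so the 54.1% is not a like comparison. Controls 1 and 2 were the least alike, with a Pearson r of log2 ratios of 0.948. The other r values were 0.961 (controls 1 and 3) and 0.977 (2 and 3). In the 198 pairs the order was also that of the mitochondrial shares, 13.5%, 4.23% and 0.946%. The part of that share, of RNA quality or of stage in this was not tested. The L to S ratio was highest in control 1 in 106 of the 215 and lowest in 107, and 68 crossed equality. The pairs named next were chosen after their values were seen, for their wide range.

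ubb, a polyubiquitin gene, had log2 ratios of −1.11, 1.53 and 0.19 in controls 1, 2 and 3. ubb.L had 240.1, 252 and 227 CPM in controls 1, 2 and 3, against 518, 87.2 and 199 CPM for ubb.S. The L copy was thus steady and the S copy moved. In mgst3, for a microsomal glutathione transferase, the ratios were 3.28, 0.76 and 2.06, and in cidea, of lipid droplets, −3.52, −1.22 and −2.15. Ribosomal protein genes were among them: rps12 had −0.29, −2.57 and −1.70 and rpl10 1.81, −0.38 and 0.67. rbx1, of cullin ubiquitin ligases, had 1.72, −0.24 and 0.88 and ube2c, the ubiquitin-conjugating enzyme of mitotic exit, 2.13, 0.25 and 1.07. actb had −2.42, −0.65 and −1.36. The ratios were −2.99, −0.89 and −1.79 in c1h9orf85, 1.65, −0.45 and −0.42 in nacc1 and −3.56, −1.56 and −2.42 in tmem45b. These complete the 8 widest of the 215 pairs with both copies at 5 CPM or more. The ranges of rbx1, ube2c and actb were narrower. In all 11 of these pairs control 3 had the middle ratio, and in ubb, cidea, actb, c1h9orf85 and tmem45b the L share was lowest in control 1.

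**Figure D5:**
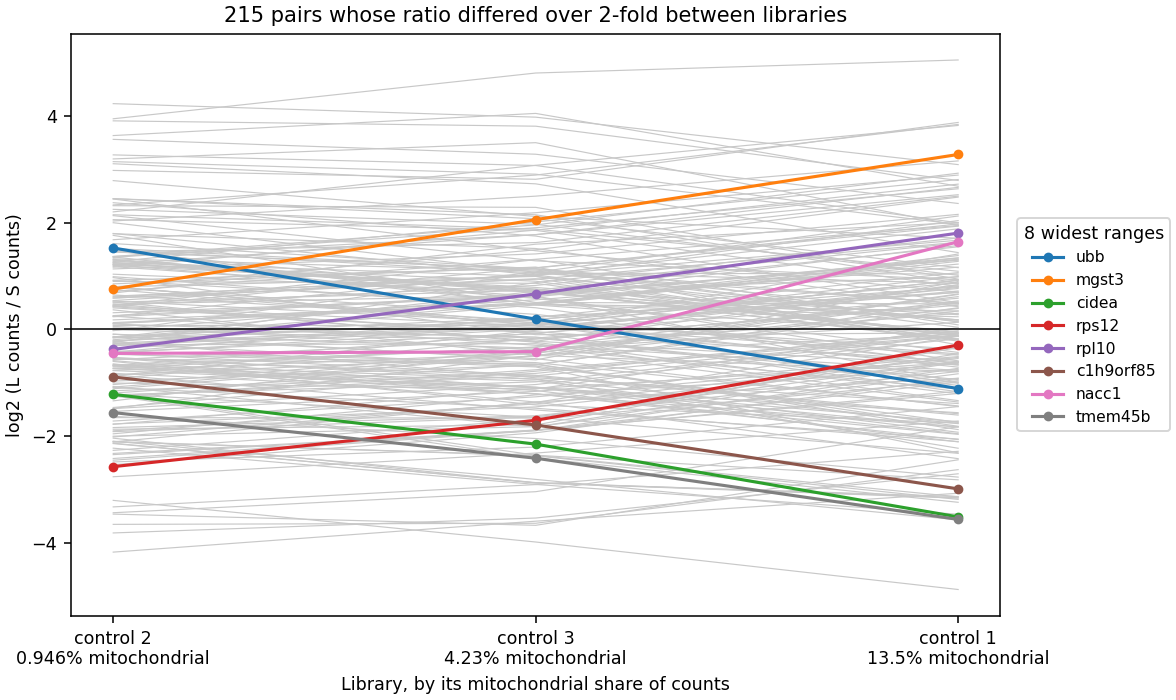
Log2 ratio of L to S counts (y axis) in controls 2, 3 and 1, placed by their mitochondrial share of 0.946%, 4.23% and 13.5% (x axis), for 215 pairs. These had both copies at 5 CPM or more and a ratio that differed more than 2-fold between libraries. The 8 widest of the 215 are in colour (ubb, mgst3, cidea, rps12, rpl10, c1h9orf85, nacc1 and tmem45b). Most lines run one way from control 2 to control 1, and about as many climb as fall.

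The pattern over all pairs did not rest on control 1. Without it the edgeR test called 2350 pairs higher on L and 2100 higher on S, the share of counts on L was 52.0% and the median log2 ratio was 0.08. Of the 117 pairs chosen by the rule for named genes, 98 were called. Not every alternative tested all 117: the filter of 10 counts on each copy kept 96, and gene spans within 10% kept 33. Of the 98 called pairs, 83 kept the call in every alternative that tested them. In at least 1 alternative 15 lost the call, and 0 turned direction. Those 15 were actg1, ctnnb1, ctnnbip1, cycs, dnaja1, eif3j, eprs1, grhl1, h2az1, mix1, sox11, sox3, ube2g1, vegt and ventx2.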

How the data were processed

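RNA was measured in 3 control libraries of 3 embryos each. The authors deposited raw counts of reads for each gene, with the L or S copy in the gene name. The submitters' processing notes list STAR 2.5.2b and edgeR without their roles. Build, annotation, counting tool and any filter: not given in the sources used here. RefSeq symbols (assembly Xenopus laevis v10.1) held 17475 of 18892 names and both names of 4645 pairs.

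Pairs with L + S of at least 10 counts in each library were tested with edgeR 4.0.16 in R 4.3.3 (quasi-likelihood test, L against S, library as block because both copies come from 1 library, library total as the size of both columns, Benjamini-Hochberg over all 5213 pairs, threshold 0.05). The common biological coefficient of variation was 11.1%. Ratios per library add 0.5 to each count. SE is the absolute log2 ratio divided by the square root of the F statistic of the test. It is not the SD between libraries, which was 1.49 for lrp4 beside an SE of 0.346. The procedure was also run on simulated data in which few pairs differed, unlike here. That run does not give the error rate in these data. CPM are counts per 1000000 counts of the library.

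Named pairs are the 10 with the widest ratio each way among called pairs with both copies at 1 CPM, L + S at 20 CPM and 3 libraries on 1 side, up to 5 each way with a copy under 0.5 CPM, the 6 with most counts near equality, the most counted and most L and S of each family, and a fixed list of patterning genes; further family members were named by role after their values were seen. Members and lists were chosen with earlier results of these data known. Alternatives used limma 3.58.1 and DESeq2 1.42.0.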

Additional observations from a re-analysis of the deposited data

How the results depend on the processing

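Counts of called pairs stayed within 1.5 times under a filter of each copy or none, both scalings, both other tools and either subset by name, and 0 calls changed sign in any alternative. DESeq2's Wald test called 2176 pairs higher on L and 1934 higher on S, and limma 2210 and 1967. Without the replicate block, so with L and S columns of a library unpaired, edgeR called 1734 and 1483, and 3216 of 4216 calls held. Leaving out 1 library in turn gave 1989 to 2350 pairs higher on L and 1769 to 2100 higher on S, and a median log2 ratio of 0.0657 to 0.0793. That median, 0.0853 in the fit, was 0.0647 with at least 10 counts on each copy, 0.0735 without tandem copies, −0.0146 with TMM over the L and S columns and 0.00452 with DESeq2 size factors over them, which centre the ratio by construction. TMM left 49.3% of calls on L, against 52.9%. Chosen after seeing the data, the 1534 pairs whose gene spans differ by under 10% gave 681 and 567 calls, 380 and 293 at 2-fold and a median of 0.121, with fewer pairs tested. Pairs with both names in RefSeq had 52.1% of counts on L. A fold of 4 left 626 and 495. Medians of 15 of 28 families changed sign under some alternative, 5 of them with the same pairs; the cause was not tested. Ratios per coding length, pairs with proteins of like length and CPM per kilobase were not run, since no such lengths were at hand. Ratios of low copies are limited by depth: a count of 3 is 0.203 to 0.228 CPM.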
